A study of Mus musculus with 8 samples.

Results

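The genes described here are 10 genes that mark lung fibroblasts and are not collagens, namely Pdgfra, Tcf21, Dcn, Lum, Ogn, Wnt2, Npnt, Gli1, Meox2 and Pi16. They were taken by symbol from a table of 54532 genes, and each had 1 row. They were followed in bulk RNA-seq libraries of lung endothelial cells (ECs) from wild-type (WT) C57BL/6J mouse pups at day 14 after birth, 4 from pups kept in normoxia (room air, 21% O2) and 4 from pups kept in hyperoxia (80% O2) between day 0 and day 14. Such exposure is used as a model of bronchopulmonary dysplasia, a lung disease of premature infants in which alveoli and vessels form poorly. ECs had been prepared from digested lungs by removing CD45-bound cells, which are leukocytes, on beads and then collecting the cells bound by beads against CD31, an EC surface protein. How many pups went into a library was not given, so the p-values measure the spread between these libraries. All samples were WT and carried no transgene. The question was how far these genes were seen in such an isolate, and whether their levels differed after hyperoxia.

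Fibroblasts are the matrix-producing cells of the lung stroma. Alveolar fibroblasts lie in the alveolar walls beside the epithelium and the capillaries, and they make ligands and matrix on which alveoli are built; Tcf21, Wnt2, Npnt and Pdgfra are commonly used to mark them. Adventitial fibroblasts sheathe the larger vessels and airways, and Pi16, Dcn, Lum and Ogn are commonly used to mark cells of that kind, although Dcn is made by most fibroblasts. Several of the genes are not made by fibroblasts alone. Npnt is also made by alveolar epithelial cells, and Meox2 is also known as a homeobox gene of vascular cells.

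Library totals ran from 16098086 to 18300730 counts. The isolates were rich in EC transcripts. Cdh5, which encodes VE-cadherin, had a level of 972 ± 40.6 FPKM in normoxia and 955 ± 36.1 FPKM in hyperoxia (SD, n = 4 libraries each). The CD31 gene Pecam1 had 462 ± 20.2 and 451 ± 19.2 FPKM. Transcripts of other cells were present as well. The alveolar type 2 marker gene Sftpc had 102 ± 30.1 FPKM in normoxia and 1078 ± 457 FPKM in hyperoxia, where its mean was above that of Cdh5. FPKM is the count of a gene per kilobase of its length, scaled to the library total, and is the scale on which different genes are compared below. CPM is the count scaled to library size, after TMM adjustment of those sizes, and is the scale on which libraries are compared for 1 gene.

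Promoter sequences before the start of the gene were found in RefSeq (GRCm38.p6) for 7 of the 10 genes, and not for Dcn, Lum and Gli1. For 4 of these genes all 250 bases before a RefSeq start lay outside the annotated exons, and these are shown because they include Npnt and Meox2, which passed the test of hyperoxia against normoxia, beside Pdgfra and Ogn, which did not. Npnt had a further RefSeq start at 132949814 with 0 such bases, and its window below belongs to the start at 132950291. Capitals mark E-boxes, the letters CANNTG with N for any base. A match on either strand is a match on both, although the middle letters can differ. E-boxes are the core bound by basic helix-loop-helix factors, the family of Tcf21.
Npnt, chr3:132950292-132950541 (- strand): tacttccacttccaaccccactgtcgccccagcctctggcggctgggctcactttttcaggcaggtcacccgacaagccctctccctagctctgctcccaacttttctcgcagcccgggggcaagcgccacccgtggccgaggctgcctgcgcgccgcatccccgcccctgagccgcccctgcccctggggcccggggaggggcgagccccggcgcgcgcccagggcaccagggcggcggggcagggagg
Meox2, chr12:37108290-37108539 (+ strand): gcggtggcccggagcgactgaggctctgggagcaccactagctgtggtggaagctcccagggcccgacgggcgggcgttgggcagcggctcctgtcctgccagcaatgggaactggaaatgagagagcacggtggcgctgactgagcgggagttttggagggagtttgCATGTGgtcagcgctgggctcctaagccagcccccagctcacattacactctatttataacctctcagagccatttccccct
Pdgfra, chr5:75152001-75152250 (+ strand): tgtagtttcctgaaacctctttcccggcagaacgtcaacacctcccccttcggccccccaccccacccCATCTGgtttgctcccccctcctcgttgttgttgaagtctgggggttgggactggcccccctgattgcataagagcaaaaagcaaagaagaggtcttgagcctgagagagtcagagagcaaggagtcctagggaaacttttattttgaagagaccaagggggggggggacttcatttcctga
Ogn, chr13:49607765-49608014 (+ strand): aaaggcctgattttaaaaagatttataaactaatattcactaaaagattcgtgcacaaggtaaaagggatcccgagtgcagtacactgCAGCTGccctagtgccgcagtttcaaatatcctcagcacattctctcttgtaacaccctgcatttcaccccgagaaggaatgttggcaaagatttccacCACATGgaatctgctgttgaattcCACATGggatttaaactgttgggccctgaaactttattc
The Npnt window held 0 E-boxes, those of Meox2 and Pdgfra 1 each and that of Ogn 3, and 66.2% of 32851 promoter windows of this length held at least 1. The TATA box letters TATAAA, searched on both strands, had 2 matches in the Ogn window, which overlap on opposite strands, 1 in the Meox2 window and 0 in the others, against 12.4% of all windows with a match. The homeodomain letters TAATTA were in none of the 4 windows and in 4.84% of all windows. These matches describe letters only, and no binding was measured.

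All of the fibroblast genes except Npnt were scarce. In normoxia the order by mean level per length was Npnt (8.51 ± 2.91 FPKM), Tcf21 (1.84 ± 0.592), Meox2 (1.54 ± 0.152), Ogn (1.53 ± 0.585), Pi16 (0.992 ± 0.245), Pdgfra (0.304 ± 0.0908), Wnt2 (0.26 ± 0.0739), Gli1 (0.081 ± 0.0778), Dcn (0.061 ± 0.0329) and Lum (0.0549 ± 0.0824 FPKM, SD, n = 4 libraries each). Only the steps from Npnt to Tcf21, from Pi16 to Pdgfra and from Wnt2 to Gli1 separated neighbours whose library ranges did not overlap. In hyperoxia Npnt stood at 17.5 ± 5.76 FPKM, and the others ran from 2.81 ± 1.31 FPKM for Tcf21 down to 0.0969 ± 0.0736 FPKM for Lum. There the library ranges of neighbours were apart between Npnt and Tcf21, between Meox2 and Pi16 and between Pi16 and Wnt2. Of the counts on the 10 genes over all 8 libraries, 71.5% were on Npnt.

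**Figure D1:**
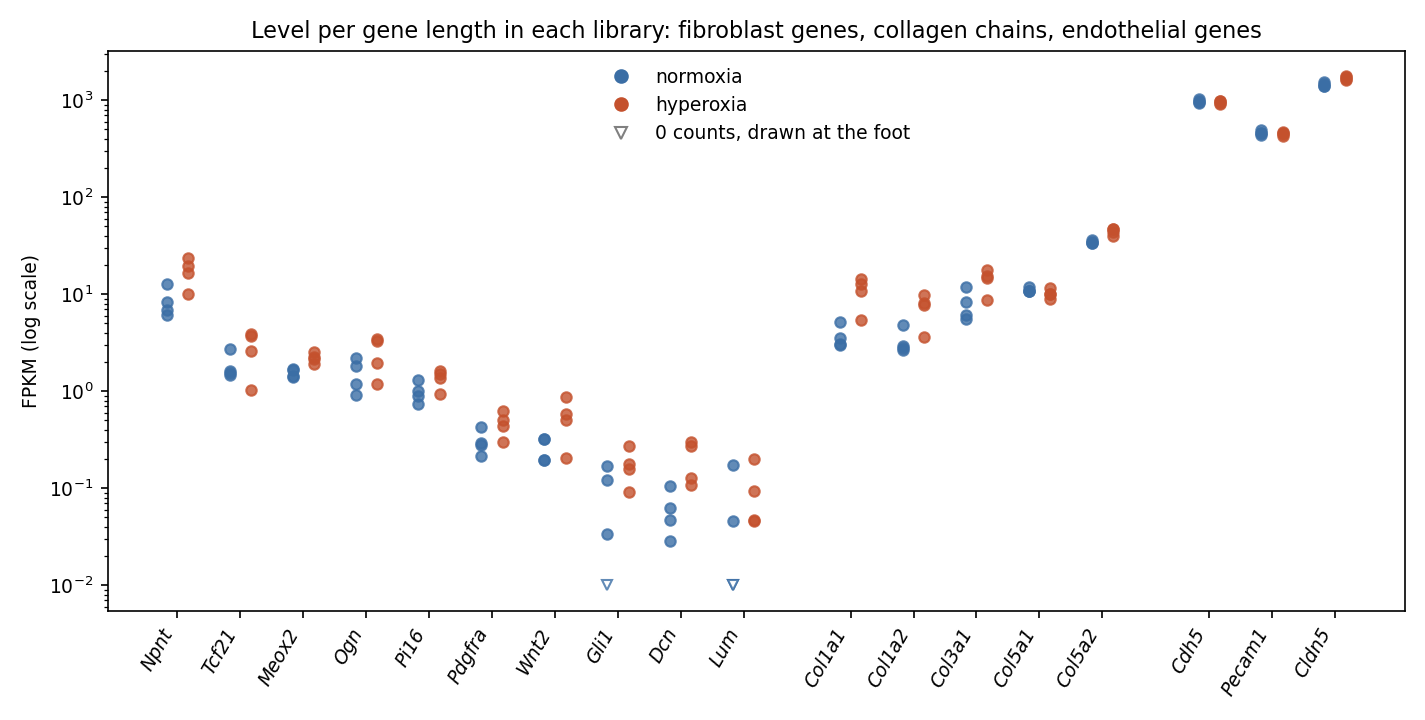
Level per gene length (FPKM, log axis) of the 10 fibroblast genes, 5 collagen chains and 3 endothelial genes, 1 point for each library in blue (normoxia) or red (hyperoxia), with libraries at 0 counts drawn as open triangles at the foot. Dcn and Lum lie at or below 0.302 FPKM in every library while Cdh5 lies near 972 FPKM in normoxia.

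The label was checked against the genes that define fibroblasts. Dcn, as a rule among the most abundant transcripts of a fibroblast, had 6, 11, 3 and 5 counts in normoxia 1 to 4, and Lum had 7, 0, 2 and 0. Dcn and Lum were thus at or near 0 in normoxia, while Dcn had 11, 28, 13 and 32 counts in hyperoxia 1 to 4. Other fibroblast markers were mixed. Gli1, with 10, 15, 3 and 0 counts in normoxia 1 to 4, and Wnt2, with 12, 13, 8 and 8, were scarce too. In the same libraries Tcf21 had 105, 65, 68 and 63 counts and Pdgfra had 71, 50, 39 and 53. Pdgfra is a long gene, and per length it stood at 0.304 FPKM. The fibrillar collagens were higher, with Col1a1 at 3.69 ± 1.02 FPKM and Col3a1 at 7.96 ± 2.84 FPKM in normoxia, and Mfap4, a microfibril protein, at 48.8 ± 16.4 FPKM. The values below are therefore levels of fibroblast genes in an EC isolate. In bulk RNA, more cells of a type and more RNA per cell cannot be told apart.

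Of the 10 genes, 9 passed the filter on low counts, and Lum did not. Npnt, Dcn and Meox2 were higher in hyperoxia at a Benjamini-Hochberg adjusted p under 0.05 in edgeR's quasi-likelihood test. These 3 are 33.3% of the 9 tested, beside 18.5% of all 15564 genes tested, and Dcn entered the test through its hyperoxia libraries, as described below. The other 6 were not past the threshold. No member was lower, at an adjusted or an unadjusted p under 0.05 in edgeR (0 of 9) or at an adjusted p under 0.05 in DESeq2 or limma-voom (0 of 9), beside 17.1% of all genes. Npnt and, with the same limit, Dcn also had a log2 fold change of at least 1, which 5.62% of all genes tested reached with the adjusted p. The log2 fold changes of the 9 genes ran from 0.45 to 1.71 with a median of 0.69, beside a median of -0.004 over all genes tested. Groups did not overlap for 2 of the 9, Meox2 and, with the same limit and by very little, Dcn, with hyperoxia higher, which was so for 17.8% of all genes tested.

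**Figure D2:**
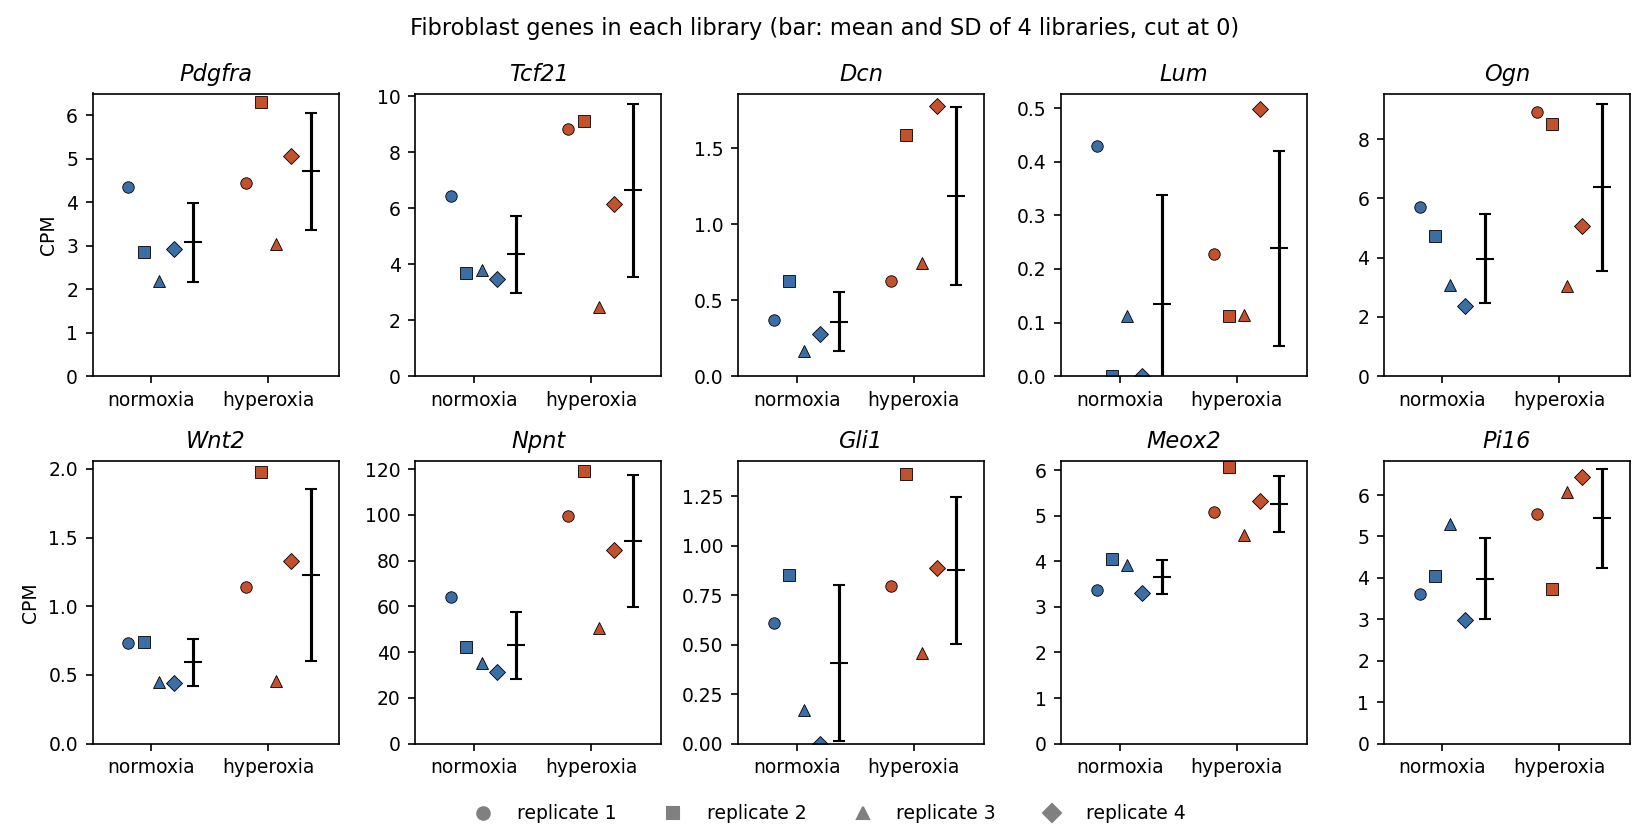
CPM of each of the 10 fibroblast genes in every library, with 1 panel and 1 linear axis for each gene, blue for normoxia and red for hyperoxia, symbols for the replicate number, and bars for the mean and SD of 4 libraries. In Npnt the hyperoxia 3 library, at 50.5 CPM, lies below normoxia 1, at 64.0 CPM, while the other 3 hyperoxia libraries lie above it.

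Pdgfra (chromosome 5, 75152292 to 75198215, + strand, GRCm38), the receptor for PDGF-A that alveolar fibroblasts and their precursors carry, had 4.35, 2.85, 2.18 and 2.93 CPM in normoxia 1 to 4 and 4.45, 6.29, 3.03 and 5.05 CPM in hyperoxia 1 to 4. Hyperoxia 1, 2 and 4 were above every normoxia library, and hyperoxia 3 lay within the normoxia range. Hyperoxia over normoxia this was 0.62 on the log2 scale (SE 0.257, adjusted p 0.0862). Leaving out hyperoxia 3 gave 0.78 with an adjusted p of 0.0267 and leaving out normoxia 1 gave 0.82 with 0.0309, the only alternatives of 19 that passed, over an adjusted p range of 0.0267 to 0.238.

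Wnt2 (chromosome 6, 17988940 to 18030585, - strand), a secreted Wnt ligand that the mesenchyme sends to the lung epithelium, had 12, 13, 8 and 8 counts in normoxia 1 to 4 and 20, 35, 8 and 24 counts in hyperoxia 1 to 4. Hyperoxia 3 again lay among the normoxia libraries. Wnt2 reached the count minimum of the filter in 2 of 4 normoxia and 3 of 4 hyperoxia libraries. From 0.591 ± 0.169 CPM in normoxia it stood at 1.23 ± 0.627 CPM in hyperoxia (SD, n = 4 each), and the difference of 1.05 on the log2 scale had an SE of 0.42 and an adjusted p of 0.0744. Without hyperoxia 3 it was 1.33 with an adjusted p of 0.0116, and that alternative was the only one of 18 that passed (adjusted p 0.0116 to 0.228).

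Among the transcription factors, Tcf21 and Gli1 overlapped between the groups and Meox2 did not. Tcf21 (chromosome 10, 22817281 to 22820174, - strand), the basic helix-loop-helix factor of the lung mesenchyme, had 6.43, 3.70, 3.80 and 3.48 CPM in normoxia and 8.85, 9.12, 2.46 and 6.16 CPM in hyperoxia. Hyperoxia 3 was the lowest of all 8 libraries for this gene, and normoxia 1 was above hyperoxia 4. The log2 fold change was 0.61 (SE 0.356, adjusted p 0.208). Without hyperoxia 3 it was 0.89 with an adjusted p of 0.0147, over a range of 0.0147 to 0.441 in 19 alternatives of which only that one passed.

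Gli1 (chromosome 10, 127329882 to 127341974, - strand), the zinc finger factor that is both an effector and a target of hedgehog signalling, had 10, 15, 3 and 0 counts in normoxia and 14, 24, 8 and 16 counts in hyperoxia. The 0 in normoxia 4 allows a level of up to 0.166 CPM, the level of 3 counts. Its log2 fold change of 1.11 had an SE of 0.665 and an adjusted p of 0.224, and it passed in none of 18 alternatives (adjusted p 0.0962 to 0.448). Gli1 reached the count minimum of the filter in 2 of 4 normoxia and 3 of 4 hyperoxia libraries. Exons of Arhgap9 on the other strand cover 1.24% of its exon bases.

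Meox2 (chromosome 12, 37108540 to 37179534, + strand), a mesenchyme homeobox gene, had 3.37, 4.04, 3.92 and 3.31 CPM in normoxia and 5.08, 6.06, 4.58 and 5.33 CPM in hyperoxia. Every hyperoxia library was above every normoxia library, and the spread within groups was the narrowest among the 10 genes relative to the mean. It rose from 3.66 ± 0.372 to 5.26 ± 0.616 CPM (SD, n = 4 each), by 0.52 on the log2 scale (SE 0.145, adjusted p 0.0164). Of its 19 alternatives 18 passed, and leaving out hyperoxia 2 gave an adjusted p of 0.0567 (range 0.0091 to 0.0567). Hyperoxia 3 was its lowest hyperoxia library, but at 0.834 of the mean of the other 3, against 0.306 for Tcf21 and 0.308 for Wnt2.

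Npnt (chromosome 3, 132881745 to 132950291, - strand) encodes nephronectin, a basement membrane protein that binds integrin alpha8 beta1. It had 64.0, 42.1, 35.1 and 31.2 CPM in normoxia and 99.3, 119, 50.5 and 84.8 CPM in hyperoxia. Hyperoxia 1, 2 and 4 were above every normoxia library and hyperoxia 3 was not. The gene rose from 43.1 ± 14.7 to 88.5 ± 29.1 CPM (SD, n = 4 each), by 1.04 on the log2 scale (SE 0.265, adjusted p 0.011), and it passed in all 19 alternatives with log2 fold changes of 0.86 to 1.29 and adjusted p-values of 0.000269 to 0.0358.

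Dcn (chromosome 10, 97479609 to 97518143, + strand) encodes decorin, a small leucine-rich proteoglycan that binds collagen fibrils. Its 6, 11, 3 and 5 counts in normoxia stood against 11, 28, 13 and 32 counts in hyperoxia. The groups were apart by very little, 0.626 CPM in normoxia 2 against 0.628 CPM in hyperoxia 1, both from 11 counts. Normoxia 2 had the smaller library total (17544805 against 17601052 counts), so this separation rests on the TMM adjustment. The rise was 1.71 on the log2 scale (SE 0.473, adjusted p 0.0166). In normoxia 1 of 4 libraries reached the count minimum of the filter and in hyperoxia 4 of 4 did, so the gene entered the test through the group in which it is higher. It was no longer past the threshold without hyperoxia 2 (adjusted p 0.051) or without hyperoxia 4 (0.0519), nor in limma on log2(FPKM + 1) (0.0577), and it passed in 15 of 18 alternatives (range 0.00813 to 0.0577).

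Lum (chromosome 10, 97565128 to 97572703, + strand) encodes lumican, a related proteoglycan, and lies 46984 bases from Dcn. It had 7, 0, 2 and 0 counts in normoxia and 4, 2, 2 and 9 counts in hyperoxia. Means of 0.135 and 0.239 CPM gave an exact two-sided permutation p of 0.429 over 70 assignments of 4 against 4 libraries. The neighbouring proteoglycan genes Kera and Epyc had 1 and 0 counts over all libraries.

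Ogn (chromosome 13, 49608046 to 49624501, + strand), which encodes osteoglycin, another proteoglycan of this family, had 5.69, 4.72, 3.08 and 2.38 CPM in normoxia and 8.91, 8.50, 3.03 and 5.05 CPM in hyperoxia. Normoxia 1 was above hyperoxia 3 and hyperoxia 4. The log2 fold change was 0.69 (SE 0.354) with an adjusted p of 0.158. Without hyperoxia 3 it was 0.92 with an adjusted p of 0.0365, the lowest of its 19 alternatives (0.0365 to 0.351), of which 2 passed. Its chromosomal neighbours of the same family were uneven, with 6 counts over all libraries for Omd, 619 for Aspn and 1282 for Ecm2, against 724 for Ogn itself.

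Pi16 (chromosome 17, 29318877 to 29329413, + strand), which encodes a CAP-domain protein of adventitial fibroblasts, did not follow the libraries in the same way. It had 3.61, 4.04, 5.31 and 2.98 CPM in normoxia and 5.54, 3.74, 6.07 and 6.43 CPM in hyperoxia. Hyperoxia 2, the highest library for 6 of the 10 genes, was its lowest hyperoxia library, and hyperoxia 3 was its second highest. The log2 fold change was 0.45 (SE 0.216) with an adjusted p of 0.132. Leaving out normoxia 3 gave an adjusted p of 0.0492, the only one of 19 alternatives that passed (range 0.0492 to 0.297). The length and coordinates of Pi16 in the table differ from those in GENCODE M21, which the other 9 genes match, and an exon of another gene on the opposite strand covers 3.49% of its exon bases.

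**Figure D3:**
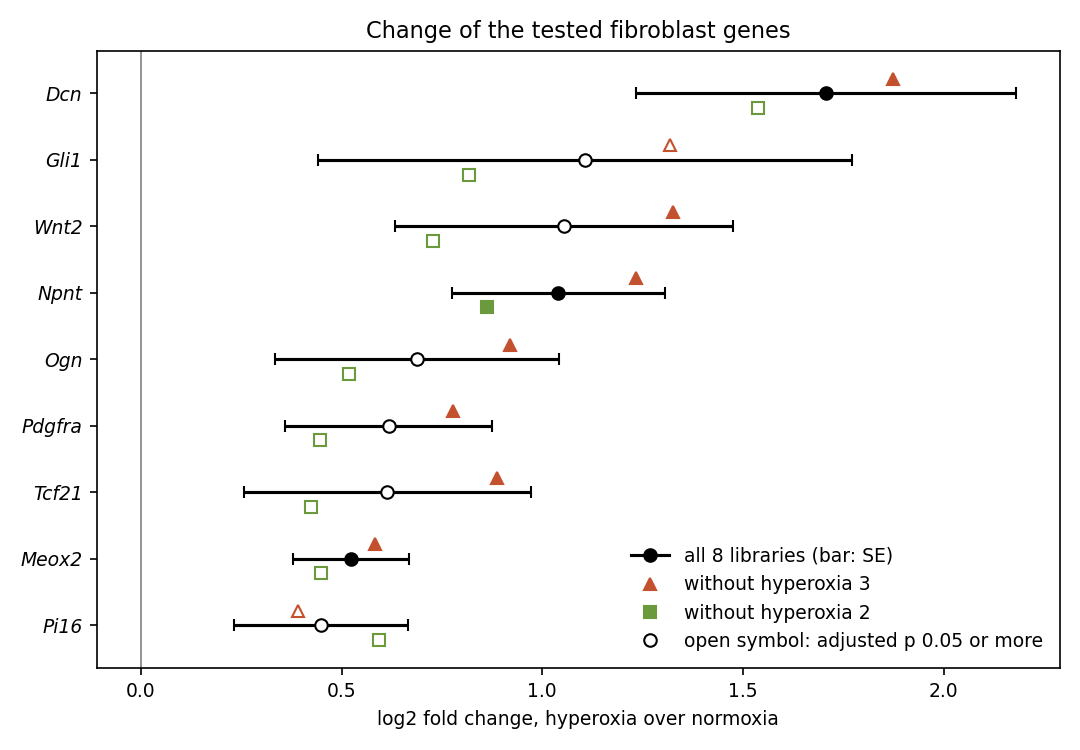
Log2 fold change (hyperoxia over normoxia) of the 9 tested fibroblast genes with all 8 libraries (circles, bars show SE), without hyperoxia 3 (triangles) and without hyperoxia 2 (squares), with filled symbols for an adjusted p under 0.05. With all libraries 3 circles are filled, without hyperoxia 3 there are 7 filled triangles, and without hyperoxia 2 only Npnt is filled.

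The count of genes that rose depended on single libraries. Without hyperoxia 3 it was 7 of 9 (77.8%, beside 17.6% of all genes tested), all but Gli1 and Pi16, and without hyperoxia 2 it was 1 of 9 (11.1%, beside 15.1%), which was Npnt. Hyperoxia 3 was the lowest hyperoxia library for 7 of the 10 genes and the highest for 0, while over all genes tested it was lowest for 27.8% and highest for 27.5%. Removing the lowest library of a group raises the group's mean, so the count without hyperoxia 3 is no separate support for a rise. That count includes Dcn and Wnt2, for which 1 and 2 of 4 normoxia libraries reached the count minimum of the filter. Normoxia 4 was the lowest normoxia library for 7 of the 10 (21.2% of all genes) and normoxia 1 the highest for 5 (24.4%). Summed over the 10 genes, libraries stood at 89.6, 63.7, 54.3 and 47.0 CPM in normoxia 1 to 4 and at 135, 158, 71.4 and 117 CPM in hyperoxia 1 to 4. Without Npnt the sums were 25.6, 21.6, 19.2 and 15.8 CPM and 35.6, 38.7, 20.9 and 32.5 CPM. On both sums hyperoxia 3 lay within the normoxia range.

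Other fibroblast genes were read from lists beside these 10. In the counts of these and the following lists, genes that rose or fell are those at an adjusted p under 0.05. Of all genes tested, 18.5% were higher and 17.1% lower at that threshold. No set test was run on any list. Of 8 further alveolar fibroblast genes all were tested and 1 rose, Ces1d, a carboxylesterase, from 4.62 to 20.9 CPM, by 2.18 on the log2 scale (adjusted p 0.00114). Of the others, Mfap4 (94.6 and 158 CPM, adjusted p 0.0999) and the nephronectin receptor chain Itga8 (6.39 and 9.73 CPM, adjusted p 0.121), did not pass. Inmt, which did not pass either, had the opposite sign (3.12 and 2.12 CPM, log2 -0.55, adjusted p 0.262). All 8 were lowest in hyperoxia 3 among the hyperoxia libraries, while of the 10 adventitial genes that follow 6 were. Of 10 adventitial genes 9 were tested, and 5 rose and 1 fell. The 3 with a log2 fold change of at least 1 were Dpt, which encodes dermatopontin (8.43 to 18.2 CPM, 1.11), Fbln1, which encodes fibulin-1 (1.83 to 4.19 CPM, 1.20), and Pcolce, an enhancer of procollagen processing (6.53 to 13.8 CPM, 1.08). Fbn1, which encodes fibrillin-1, and Pcolce2 rose by 0.39 and 0.95 on the log2 scale, while Col14a1 fell from 72.0 to 54.3 CPM (log2 -0.41, adjusted p 0.00128). Their medians were 0.47 and 0.75 on the log2 scale. Of 5 fibrillar collagen chains 4 rose, with Col1a1 going from 24.4 to 71.2 CPM (1.55), Col1a2 from 41.0 to 91.1 CPM (1.16), Col3a1 from 78.7 to 139.6 CPM (0.83) and Col5a2 from 333 to 428 CPM (0.36), and Col5a1 stood at 95.3 and 86.7 CPM (adjusted p 0.166).

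Hedgehog signalling, in which a ligand relieves the block that Ptch1 places on Smo so that Gli factors act, was read through 13 genes, 12 of them tested. Of these, 3 rose and 2 fell, beside 18.5% and 17.1% of all genes tested. The ligand gene Shh went from 0.217 to 1.57 CPM (log2 2.83, adjusted p 0.000222), with 0 of 4 normoxia libraries at the count minimum, so that it was tested through hyperoxia alone. The ligand-binding Hhip went from 1.68 to 4.54 CPM (1.45, adjusted p 0.0216). The co-receptor gene Boc rose by 0.50. Sufu, a negative regulator of Gli factors, was among those that fell, from 64.6 to 54.0 CPM (-0.26, adjusted p 0.00461). Ptch1, also a target gene of the pathway, stood at 83.2 and 82.0 CPM (adjusted p 0.901) and Smo at 57.1 and 57.9 CPM (adjusted p 0.781).

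In the PDGF family 5 of 6 genes other than Pdgfra, which did not pass, rose. These were the ligand genes Pdgfa (8.51 to 16.5 CPM, log2 fold change 0.96), Pdgfb (434 to 546 CPM, 0.33), Pdgfc (0.498 to 1.07 CPM, 1.09) and Pdgfd (74.0 to 99.3 CPM, 0.42) and the pericyte receptor gene Pdgfrb (9.72 to 19.9 CPM, 1.04, adjusted p 0.0386). Pdgfrl did not pass (adjusted p 0.707). Of the 13 other small leucine-rich proteoglycan genes 7 were tested, and 3 rose and 1 fell. Bgn, which encodes biglycan and is also made by ECs, went from 222 ± 43.9 to 412 ± 43.5 CPM (0.89, adjusted p 0.000367), Aspn from 1.87 to 6.94 CPM (1.90, adjusted p 0.00252) and Tsku from 2.20 to 4.49 CPM (1.02, adjusted p 0.00203), and Chad fell from 5.56 to 2.80 CPM (-0.99, adjusted p 0.00973). Prelp (adjusted p 0.548) and Ecm2 (adjusted p 0.254) did not pass.

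Among 18 other Wnt ligand genes 8 were tested, and 2 rose, beside 18.5% of all genes tested. Wnt5a, a ligand of the lung mesenchyme, went from 1.96 to 4.72 CPM (log2 1.27, adjusted p 0.00227) and Wnt10b from 0.487 to 2.56 CPM (2.38, adjusted p 0.000973). Wnt10b reached the count minimum in 1 of 4 normoxia libraries and in 4 of 4 hyperoxia libraries, the group in which it is higher. Wnt2b, the closest relative of Wnt2, stood at 4.22 and 2.86 CPM (-0.56, adjusted p 0.08), the opposite sign to Wnt2, and Wnt11 did not pass (adjusted p 0.419). Of 6 integrin and basement membrane genes listed as partners or relatives of nephronectin, 4 rose. Its paralog gene Egfl6 went from 0.711 to 10.8 CPM (3.93, adjusted p 9.11e-05), the basement membrane genes Fras1 and Frem2 from 0.65 to 5.80 CPM (3.15) and from 0.889 to 3.64 CPM (2.03), and the integrin gene Itgb1 from 1616 to 2000 CPM (0.31), while Frem1 (adjusted p 0.825) and Itga8 did not pass. Fras1, and Pdgfc in the PDGF family, reached the count minimum in 2 of 4 normoxia libraries and in 4 of 4 hyperoxia libraries. Of 7 basic helix-loop-helix and homeobox relatives 4 were tested. Meox1, the paralog of Meox2, rose from 40.3 to 65.3 CPM (0.70, adjusted p 0.000152), Tcf3 fell from 212 to 160 CPM (-0.41, adjusted p 5.72e-05), and Tcf4 (adjusted p 0.0672) and Tcf12 (adjusted p 0.314) did not pass. Of 4 relatives of Pi16 with a CAP domain, Glipr2 rose from 5.42 to 9.71 CPM (0.84, adjusted p 0.00775) and Crispld1 (adjusted p 0.171) and Glipr1 (adjusted p 0.652) did not pass.

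Markers of other lung cells moved in the same libraries. All 6 alveolar type 1 markers rose, among them Ager (25.4 to 153 CPM), and their summed level ran from 72.4 to 87.3 CPM in normoxia and from 145 CPM (hyperoxia 3) to 401 CPM (hyperoxia 1). All 6 alveolar type 2 markers rose, among them the surfactant protein gene Sftpc (106 to 1121 CPM), summed at 232 to 315 CPM in normoxia. Hyperoxia 3 stood at 700 CPM on that sum, and the remaining hyperoxia libraries at 1820 to 2060 CPM. Of 10 mural and myofibroblast markers 9 were tested and 7 rose, Pdgfrb and Aspn of the lists above and the pericyte genes Rgs5 (28.7 to 61.8 CPM) and Notch3 (7.32 to 18.8 CPM) among them, summed at 46.7 to 85.2 CPM in normoxia and 104 to 185 CPM in hyperoxia. In all 3 of these lists hyperoxia 3 had the lowest hyperoxia sum, as it had for the fibroblast genes, and normoxia 1 the highest normoxia sum. Of 4 mesothelial markers only Msln was tested, with 1 of 4 normoxia and 4 of 4 hyperoxia libraries at the count minimum, and it rose (0.266 to 1.47 CPM), with sums of 0.0552 to 0.735 CPM in normoxia and 0.859 to 2.0 CPM in hyperoxia, while Upk3b, Wt1 and Lrrn4 had at most 6 counts each over all libraries. Of 5 leukocyte markers Lyz2 rose (77.3 to 225 CPM), Cd68 fell (40.8 to 25.7 CPM) and 3 did not pass. The median log2 fold change of the 5 was -0.00345, and they summed to 133 to 255 CPM in normoxia and 176 to 431 CPM in hyperoxia. The 8 pan-endothelial markers stayed between 14500 and 15900 CPM in sum, with 2 higher and 3 lower. The part of these cells in the fibroblast gene values, including that of epithelial cells in Npnt, was not tested.

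**Figure D4:**
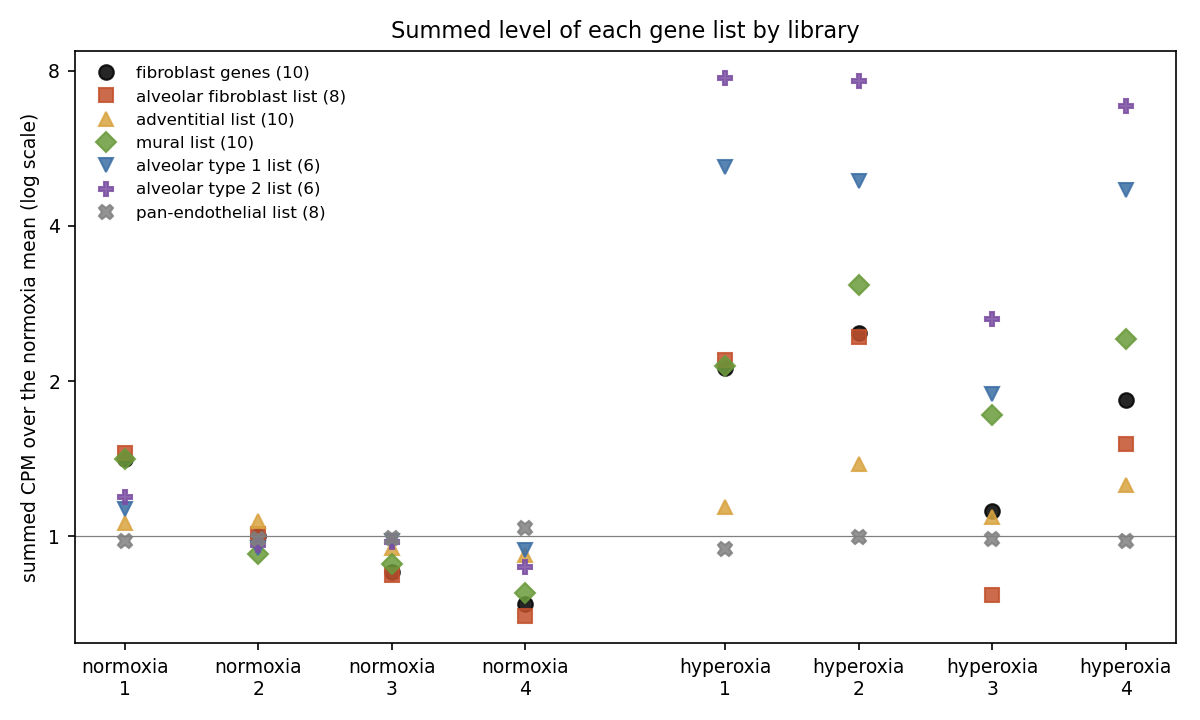
Summed CPM of each gene list in every library divided by its normoxia mean (log axis), with 1 symbol and colour for each list. The fibroblast genes stand at 2.12, 2.48, 1.12 and 1.84 in hyperoxia 1 to 4, the alveolar type 2 list at 7.75, 7.64, 2.64 and 6.84, and the pan-endothelial list at 0.944 to 0.996.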

How the data were processed

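Lung EC libraries of 4 normoxia and 4 hyperoxia samples were grouped by their titles. The authors deposited whole-number counts per gene and FPKM for the same genes. The submitters' processing notes name HISAT2 2.0.5, featureCounts 1.5.0-p3 and mm10; strand use and multi-mapping reads were not given in the sources used here. Coordinates are those of the deposited table.

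Counts were tested with edgeR 4.0.16 (R 4.3.3) by the quasi-likelihood test with TMM, filterByExpr (15564 genes, at least 99.8% of each library's counts) and group as the only term. P-values were adjusted over all genes tested, the threshold was 0.05, and the fold change limit a log2 change of 1. DESeq2 1.42.0, limma 3.58.1, other scalings and filters, the replicate number as a block and leaving out each library were the alternatives. The test was checked on simulated counts. The genes and lists were chosen with earlier results of these data known. From each list the text names the 3 genes highest in mean CPM and those past both limits, except for an item that is not reported here. For markers of other cells it gives counts and sums. Boc, Dhh, Pdgfa, Pdgfrl, Chad, Meox1, Pcolce2, Inmt, Omd, Kera, Epyc and Upk3b were named after their values were seen. Counts carry no molecular identifiers, and limits from a count of 0 cover counting error only.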

Additional observations from a re-analysis of the deposited data

Results flagged for a closer look

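Tcf21 in normoxia 1, at 6.43 CPM, stood apart from the other 3 normoxia libraries, at 3.48 to 3.80 CPM. Its gap to the nearest of them was 0.89 of the range of the group in Dixon's test, past its 95% critical value. Among the 20 combinations of gene and group this was the only one past it, and about 1 in 20 passes by chance. Without normoxia 1 the log2 fold change of Tcf21 was 0.86 with an adjusted p of 0.108 in edgeR, against 0.61 and 0.208 with all libraries, over a range of 0.0147 to 0.441 in its alternatives.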

How the results depend on the processing

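The log2 fold changes of all 9 tested fibroblast genes were positive in every alternative in which the gene was tested. The number higher at an adjusted p under 0.05 was 3 with all libraries, between 2 and 4 in the other fits on 8 libraries, and between 1 (without hyperoxia 2) and 7 (without hyperoxia 3) when 1 library was left out. The number that also reached a log2 fold change of 1 was 2 with all libraries. It was 1 with at least 1 CPM required in 4 libraries, where Dcn, Wnt2 and Gli1 were not tested, 1 in limma on log2(FPKM + 0.1) and 0 in limma on log2(FPKM + 1), where the added constant shrinks changes of scarce genes, and 0 to 3 when 1 library was left out. On log2(FPKM + 1) the calls over all genes fell as well, from 875 higher and 212 lower to 286 and 44. With the replicate block 4 genes were higher at an adjusted p under 0.05, with Ogn (adjusted p 0.0389) in addition, and 2 with the fold change limit. Same-numbered libraries did not deviate together (correlations of -0.14 to 0.119 over the 4 numbers), so the numbers were not taken as pairs. Counts of 0 to 35 per library for Dcn, Lum, Wnt2 and Gli1 limit what can be said of them.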

Other observations

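Some relatives of these genes were too scarce for the filter on low counts but were apart between the groups. Wnt3a, a canonical Wnt ligand gene, had 4, 2, 1 and 0 counts in normoxia 1 to 4 and 40, 36, 7 and 43 counts in hyperoxia 1 to 4. Wnt7b, a ligand gene of the lung epithelium, had 0, 2, 0 and 0 counts and 30, 19, 7 and 23 counts. Wnt7a had 6, 1, 2 and 2 counts and 35, 24, 8 and 31 counts. Of the proteoglycan genes, Fmod, which encodes fibromodulin, had 5, 5, 5 and 6 counts and 19, 25, 9 and 12 counts, and Podn had 4, 2, 4 and 3 counts and 11, 20, 7 and 15 counts. Hyperoxia 3 was the lowest hyperoxia library in all 5. These genes were chosen after their values were seen, and none was tested.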
